A study of Mus musculus with 18 samples.

Results

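The cytosolic ribosomal proteins are the protein parts of the ribosomes that translate messenger RNA outside the mitochondria. Genes were taken by symbol after the Ensembl identifiers were matched to the mouse annotation: protein-coding genes named Rpl or Rps with a number, the P stalk genes Rplp0, Rplp1 and Rplp2, and Rpsa, without S6 kinase genes and pseudogenes. This gave 83 genes of 48023 in the table, 51 of the large subunit and 32 of the small subunit, and they lay on 19 chromosomes. Of these, 80 passed the filter on low counts. The other 3, Rpl3l, Rpl10l and Rpl39l, had at most 4, 1 and 1 counts in any library and were not tested.

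A ribosome consists of a small subunit, which reads the messenger RNA, and a large subunit, which forms peptide bonds, and each holds ribosomal RNA and its own set of proteins. Most messenger RNAs for these proteins start with a cytosine followed by a run of pyrimidines, the 5′ terminal oligopyrimidine (TOP) motif, through which mTOR signaling and the binding protein LARP1 control their translation and stability. Growth factors that act through receptor tyrosine kinases, such as fibroblast growth factors, are known to raise ribosome production in dividing cells.

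The cells were an immortalized line of mouse brown preadipocytes, made from the stromal vascular fraction of brown fat with the SV40 T antigen, so all groups carried that oncogene and came from 1 line. They were kept in growth medium with 10% fetal bovine serum and received vehicle (Veh) or the growth factor FGF6 at 200 ng/ml for 4, 8 or 24 h, with 3 libraries in each of the 6 groups. The labels do not say whether the libraries of a group came from separate cultures, so p-values measure the spread between these libraries, which may be technical. Every mean and test below has n = 3 libraries per group.

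Total counts ran from 24327816 to 33471980 per library. Of 7 preadipocyte and stromal markers, 6 were detected, led by Col1a1, and Dlk1 had no count in any library. Their summed level was 3236 to 3478 CPM (counts of a gene scaled by library size and TMM factor) in vehicle and 2024 to 2145 with FGF6 at 4 h, 4549 to 4825 and 2255 to 2458 at 8 h, and 4272 to 4595 and 766 to 824 at 24 h, so it moved with the treatment. Sums of the other marker lists also moved with the treatment, and at 24 h the groups did not overlap in any of them. Over all libraries, markers of mature adipocytes (6 genes, Lep at 0) summed to 63.4 to 178 CPM, mostly Fabp4, and at 24 h to 156 to 178 in vehicle and 63.4 to 70.1 with FGF6. Those of macrophages (4 genes) summed to 3.32 to 18.4, and at 24 h to 6.39 to 7.92 and 3.32 to 3.97. Those of muscle (4 genes) summed to 1.21 to 9.99, and at 24 h to 5.25 to 7.45 and 1.21 to 1.54. Those of endothelium (4 genes) summed to 0.377 to 5.65, and at 24 h they were higher with FGF6, at 3.71 to 5.65 against 0.965 to 1.30 in vehicle. Ptprc and Adgre1, which define leukocytes and macrophages, reached at most 2 counts in a library. The part of these cell types in the results below was not tested.

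Vehicle 24 h replicate 3 stood apart from its group. The chi-square per degree of freedom between its counts and those of the other 2 libraries was 34.9 and 38.3, while it was 2.34 to 7.25 in the 16 other pairs of libraries within groups. Mitochondrial transcripts took 2.25% of its counts against 1.94% and 1.99% in the other vehicle libraries at 24 h. Some values at 24 h are therefore also given without it, and leaving it out shifted the log2 fold change of a member at 24 h by -0.18 to 0.16.

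The start sites below belong to the 5 genes with the largest increase after 24 h of FGF6 and to Rps27l, the member with the smallest difference at that time, because a TOP motif would begin at the first base of the transcript. Each line gives 15 bases before and 15 bases from the start annotated by RefSeq (build GRCm38.p6), on the coding strand, and capitals mark a C followed by at least 4 pyrimidines (C or T). The windows are chr4:86857353-86857382 (minus strand) for Rps6, chr11:101442230-101442259 (plus) for Rpl27, chrX:134585639-134585668 (plus) for Rpl36a, chr7:4792950-4792979 (plus) for Rpl28, chr3:86142654-86142683 (minus) for Rps3a1 and chr9:66946071-66946100 (plus) for Rps27l.
Rps6: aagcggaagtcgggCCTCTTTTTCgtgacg
Rpl27: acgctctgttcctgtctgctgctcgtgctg
Rpl36a: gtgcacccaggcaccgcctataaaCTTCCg
Rpl28: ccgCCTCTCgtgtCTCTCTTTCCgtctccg
Rps3a1: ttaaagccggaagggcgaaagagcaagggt
Rps27l: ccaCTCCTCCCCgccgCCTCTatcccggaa
Such a run lay in 4 of these 6 windows, including that of Rps27l. It covered the annotated first base of the transcript only in Rps6 and Rpl28. In Rpl36a it lay wholly after that base, and in Rps27l runs lay on either side without covering it. Over all members, 63 matched the RefSeq table, with 75 start sites. The run was found in 58.7% of the member windows and in 36.4% of all 32851 windows of that length, and in 41.3% against 18.3% when the window was narrowed to 5 bases before and 10 after the start. The letters CCGGAAG, on either strand of the 300 bases around the start, were in 36% of member windows and 8.86% of all windows. A match describes the letters only, and it may lie before or after the start. RefSeq starts were not always those of the annotation used for symbols. The Rpl27 window ends before its gene start there, 101442298 (plus strand). Which start the cells used was not tested.

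Together the 83 genes took a larger share of the counts in cells given FGF6 at 8 h and 24 h. At 4 h the share was 1.05% ± 0.0235 (SD) in vehicle and 1.07% ± 0.0157 with FGF6, and the libraries overlapped. At 8 h it was 1.06% ± 0.0252 in vehicle and 1.26% ± 0.00689 with FGF6, a ratio of 1.197. At 24 h it was 1.28% ± 0.0470 in vehicle and 1.77% ± 0.0406 with FGF6, a ratio of 1.39, or 1.36 without vehicle replicate 3, which had the lowest share of its group (1.23%). At both later times the treatments were apart, from 1.26% to 1.27% against 1.04% to 1.08% at 8 h, and from 1.74% to 1.82% against 1.23% to 1.33% at 24 h. The share is of messenger RNA counts, so more of these transcripts per cell and less of the other transcripts per cell cannot be told apart, nor can fewer cells of a type and less RNA per cell. Transcripts encoded by mitochondrial DNA took 1.60% with FGF6 and 1.71% in vehicle at 4 h, 1.73% and 1.93% at 8 h, and 2.32% and 2.06% at 24 h. Without vehicle replicate 3 the vehicle value at 24 h was 1.97%. Annotated ribosomal protein pseudogenes took 0.0223% with FGF6 and 0.0169% in vehicle at 24 h.

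**Figure D1:**
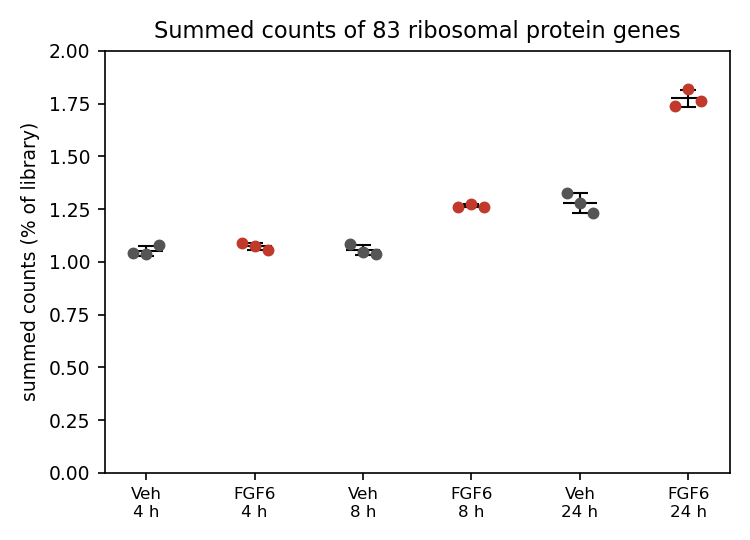
Summed counts of the 83 ribosomal protein genes as a percentage of all counts (y axis) in each library (points), with group means and SD (bars), for vehicle and FGF6 at 4, 8 and 24 h (x axis). The 3 FGF6 libraries at 24 h sit between 1.74% and 1.82%, above all other libraries, and the groups at 4 h overlap.

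Gene by gene, most ribosomal protein genes rose with FGF6, and more of them and by more at the later times. At 4 h, 55 of the 80 rose and 0 fell (edgeR quasi-likelihood test, adjusted p under 0.05), where 28.6% of all 15071 tested genes rose and 34.2% fell. At an unadjusted p under 0.05, 1 member was lower, and DESeq2 and limma called 0 lower. At 8 h, 76 rose and 1 fell, against 32.4% and 38.4% of all genes. At 24 h, 78 rose and 0 fell, against 35.9% and 37.9% of all genes, and 0 were lower at an unadjusted p under 0.05 or with DESeq2 or limma. Without vehicle 24 h replicate 3, 77 rose and 0 fell, against 36.8% and 34.2% of all genes, with a median of 0.58. The median log2 fold change of the members was 0.18, 0.39 and 0.54 at 4, 8 and 24 h, which is 1.13-, 1.31- and 1.45-fold, while that of all tested genes was -0.05, -0.05 and -0.02.

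The groups of libraries were separate for nearly all members at the later times. The lowest FGF6 library exceeded the highest vehicle library in 54 members at 4 h, 74 at 8 h and 77 at 24 h, where 30.1%, 34.2% and 36.7% of all genes were so. The reverse held for Rps20, a small subunit protein, at 4 h, for Rps27l at 8 h and for 0 members at 24 h, where 36.1%, 39.6% and 38.1% of all genes were so. The log2 fold change was positive for 75, 78 and 80 of the 80 members, against 45.4%, 46.8% and 48.6% of all genes. It increased at each step from 4 h through 8 h to 24 h in 59 of the members, and the share of all genes that did so was not computed.

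The count at 4 h depended on the scaling. With library sizes alone, in place of trimmed mean (TMM) factors, 24 members rose and 4 fell, against 21.5% and 43.1% of all genes. With upper-quartile factors 38 rose and 2 fell, against 24.7% and 39.1% of all genes. The TMM factors at 4 h were 1.02 to 1.04 in vehicle and 0.951 to 0.961 with FGF6, and taking them out moved the median of all genes by -0.10 on the log2 scale. The median of the members lay 0.23 above that of all genes with either scaling. At 24 h, 78 members rose with library sizes alone as well, against 35.5% of all genes.

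**Figure D2:**
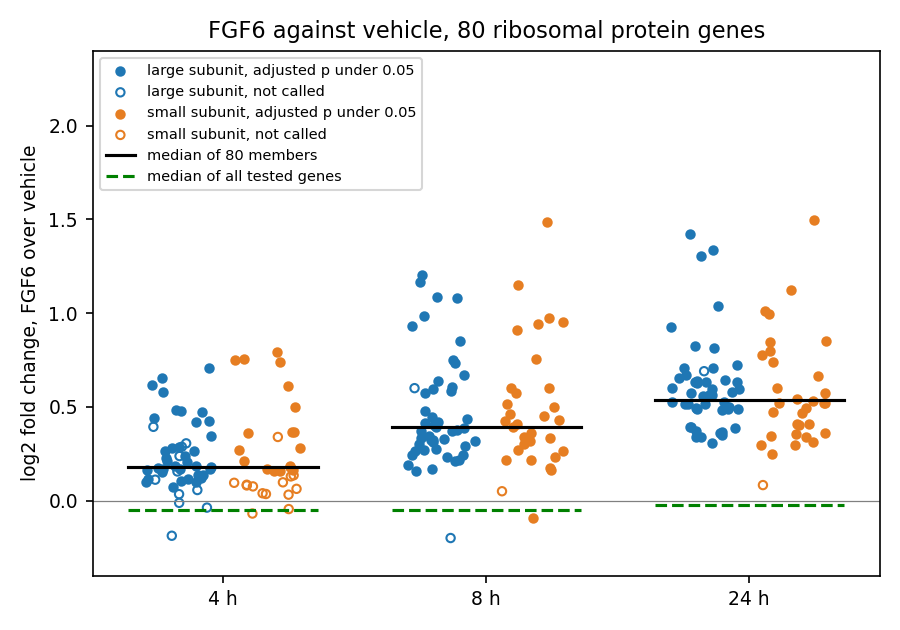
Log2 fold change of FGF6 over vehicle (y axis) for the 80 tested members at 4, 8 and 24 h (x axis), large subunit in blue and small subunit in orange, filled where the adjusted p was under 0.05. The medians of the members (black lines) are 0.18, 0.39 and 0.54, and those of all tested genes (dashed lines) are close to 0 at each time.

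Genes of both subunits took part. At 24 h, 47 of 48 large subunit genes and 31 of 32 small subunit genes rose, with medians of 0.57 and 0.52. At 8 h, 46 of 48 and 30 of 32 rose, with medians of 0.38 and 0.42, and at 4 h, 37 of 48 and 18 of 32 rose, with medians of 0.18 and 0.17. Of all genes, 28.6%, 32.4% and 35.9% rose at 4, 8 and 24 h. The ratio of summed large to small subunit counts was 1.45 ± 0.0173 (SD) with FGF6 and 1.43 ± 0.0176 in vehicle at 4 h, 1.46 ± 0.00444 and 1.44 ± 0.00887 at 8 h, and 1.40 ± 0.0153 and 1.39 ± 0.0119 at 24 h. The difference between the treatments was 0.0147 to 0.0203 at the 3 times.

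Rps6 (ENSMUSG00000028495, chr4:86854660-86857412 of GRCm38, minus strand), the small subunit protein that S6 kinases phosphorylate downstream of mTOR, had the largest fold change at 8 h and at 24 h. At 4 h its level was 6.52, 7.26 and 6.94 CPM in vehicle and 11.9, 12.8 and 9.95 CPM with FGF6. At 8 h it was 4.10, 4.99 and 4.79 CPM in vehicle and 13.2, 14.2 and 11.4 CPM with FGF6, and at 24 h it was 4.59, 3.47 and 2.86 CPM and 10.1, 9.22 and 11.8 CPM. The treatments did not overlap at any of the 3 times, and the vehicle level was lower at 8 h than at 4 h. The log2 fold change was 0.75 ± 0.12 (SE), 1.49 ± 0.13 and 1.498 ± 0.14, with adjusted p of 8.2e-06, 1.3e-10 and 4.3e-10.

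The next largest increases at 24 h were in the genes of 3 large subunit proteins, Rpl27 (ENSMUSG00000063316, chr11:101442298-101445529, plus strand), Rpl36a and Rpl28, and in Rps3a1, the gene of a small subunit protein. Rpl27 was at 13.4, 11.3 and 10.5 CPM in vehicle and 31.3, 32.9 and 30.4 CPM with FGF6 at 24 h, a log2 fold change of 1.42 ± 0.07 (adjusted p = 7.7e-16). Rpl36a was at 4.87, 5.07 and 5.89 CPM in vehicle and 12.7, 13.4 and 13.7 CPM with FGF6, a change of 1.34 ± 0.09 (adjusted p = 2.9e-13). Rpl28 was at 10.96, 9.68 and 7.69 CPM in vehicle and 24.1, 21.9 and 24.7 CPM with FGF6, a change of 1.31 ± 0.08 (adjusted p = 1.5e-13). In each of these 3 genes the groups were apart by more than the range within either. Rps3a1 was at 3.01, 3.02 and 3.11 CPM in vehicle and 6.20, 6.97 and 6.72 CPM with FGF6, a change of 1.12 ± 0.13 (adjusted p = 1.2e-08).

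At 4 h the largest change was in Rps27a, which is made as a fusion of ubiquitin with a small subunit protein. Its level at 4 h was 7.72, 8.72 and 8.41 CPM in vehicle and 13.8, 14.6 and 14.6 CPM with FGF6, which is a log2 fold change of 0.79 ± 0.08 (adjusted p = 2.6e-09). It was near the same level at the later times, 15.4 to 16.9 CPM with FGF6 at 8 h and 14.6 to 16.6 CPM at 24 h, and its change was 0.97 and 1.00. Rps29, Rps6, Rps12 and Rpl12 followed at 4 h with log2 fold changes of 0.76, 0.75, 0.74 and 0.71. Rpl12, a large subunit protein at the base of the P stalk, was at 21.5, 20.4 and 20.2 CPM in vehicle and 45.9, 48.1 and 49.1 CPM with FGF6 at 8 h, a change of 1.203 ± 0.06 (adjusted p = 4.2e-16). Rpl19 and Rps12 followed it there with 1.17 and 1.15. Rps29 and Rpl19 had mean levels of 1.66 and 1.92 CPM, so their changes rest on at most 70 and 96 counts in a library.

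**Figure D3:**
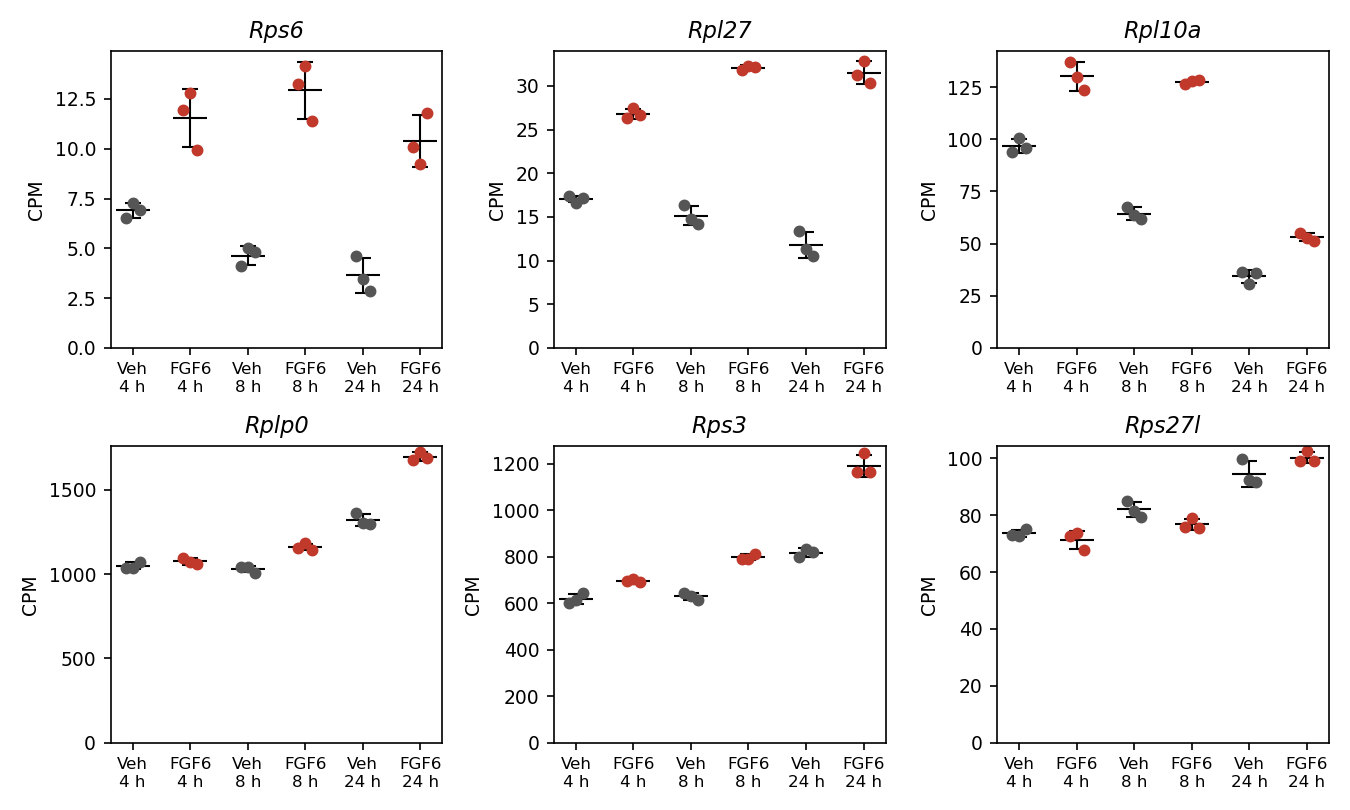
CPM (y axis, from 0) of 6 members in each library (points) with group means and SD (bars), for vehicle and FGF6 at 4, 8 and 24 h (x axis). Rps6 and Rpl27 are apart at all 3 times, Rpl10a falls with time in vehicle, Rplp0 and Rps3 are highest with FGF6 at 24 h, and Rps27l rises with time in both treatments.

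The genes of the P stalk proteins, which recruit translation factors to the large subunit, changed by less than most members at 8 h and 24 h. Rplp0 was at 1038, 1035 and 1073 CPM in vehicle and 1093, 1072 and 1057 CPM with FGF6 at 4 h, and at 1362, 1305 and 1294 CPM and 1677, 1725 and 1686 CPM at 24 h. The groups overlapped at 4 h and were apart at 24 h. The log2 fold change of Rplp0 was 0.03 ± 0.03 at 4 h (adjusted p = 0.26), where it was -0.07 (adjusted p = 0.042) with library sizes alone, then 0.17 ± 0.03 at 8 h (adjusted p = 2.5e-06) and 0.36 ± 0.03 at 24 h (adjusted p = 3.3e-12). Rplp1 gave -0.01, 0.26 and 0.31, and Rplp2 gave 0.18, 0.33 and 0.39, with adjusted p under the threshold except for Rplp1 at 4 h (0.80). Without FGF6 replicate 3, Rplp0 passed at 4 h (adjusted p = 0.038). All 3 P stalk genes lay under the lower quartile of the members, 0.41, at 24 h.

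Rpl5 and Rpl11, which join 5S ribosomal RNA in a particle that can also bind the p53 regulator MDM2, rose at every time. Rpl5 was at 8.24, 10.2 and 8.52 CPM in vehicle and 15.6, 14.8 and 14.997 CPM with FGF6 at 8 h, a log2 fold change of 0.75 ± 0.12 (adjusted p = 2.6e-06). At 4 h and 24 h its change was 0.49 and 0.66. Rpl11 had changes of 0.44, 0.85 and 0.71, and at 8 h its vehicle libraries were at 5.13 to 6.50 CPM and its FGF6 libraries at 10.03 to 11.5 CPM.

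Among members with known roles beside translation, Rps3, which also takes part in DNA repair, was at 800.1, 836 and 819 CPM in vehicle and 1166, 1246 and 1164 CPM with FGF6 at 24 h. Its log2 fold change was 0.17 ± 0.03, 0.34 ± 0.03 and 0.54 ± 0.03 at 4, 8 and 24 h. Rpl13a, a part of the interferon-activated complex that silences translation of some messenger RNAs, gave 0.07 ± 0.03, 0.25 ± 0.03 and 0.39 ± 0.03. Its call at 4 h (adjusted p = 0.039) was lost without vehicle replicate 1 (0.091) or 2 (0.082), and the value was -0.03 with library sizes alone. Rpl13a shares exonic bases with Gm45713 on the same strand, and both may share reads. Rpsa, also a laminin receptor, gave 0.37 ± 0.13, 0.50 ± 0.13 and 0.30 ± 0.13. Its call at 4 h (adjusted p = 0.019) was lost without FGF6 replicate 2 (0.057) or vehicle replicate 1 (0.067) or 2 (0.093), and its call at 24 h (adjusted p = 0.037) was lost without FGF6 replicate 2 (0.18) or vehicle replicate 3 (0.069).

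Per kilobase of the principal messenger RNA, members with high levels over all libraries were Rpl8 (1232 CPM per kb), Rplp1 (1020), Rps15 (957) and Rplp0 (899.6). The lowest tested were Rpl24 (0.914), Rpl23a (1.22), Rpl19 (2.56), Rpsa (2.82) and Rps29 (4.25), and the median was 64.4. Rpl8, a core protein of the large subunit, changed by 0.60 ± 0.04 at 24 h. Rps15, a small subunit protein, changed by 0.31 ± 0.04. These levels depend on the annotated messenger RNA length and on the reads that could be assigned.

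Few members went against the trend. Rps27l (ENSMUSG00000036781, chr9:66946086-66949516, plus strand), a paralog of Rps27 that is induced by p53, was the member that fell at 8 h and was not called at 24 h. At 8 h it was at 85.0, 81.6 and 79.5 CPM in vehicle and 76.0, 79.1 and 75.5 CPM with FGF6, and the groups did not overlap. The log2 fold change was -0.04 ± 0.04 at 4 h (adjusted p = 0.36), -0.09 ± 0.04 at 8 h (0.043) and 0.08 ± 0.04 at 24 h (0.063). The call at 8 h was lost without vehicle replicate 1 (0.19) or 2 (0.070), without FGF6 replicate 1 (0.11) or 3 (0.48), and with DESeq2 (0.26). At 24 h it passed when any library of that time but FGF6 replicate 2 was left out, with values of 0.10 to 0.17, and it was -0.12 (adjusted p = 0.0084) with an offset for GC content and length.

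Rpl24 was not called at any time, at -0.19 ± 0.39, -0.20 ± 0.36 and 0.69 ± 0.39, with 5 to 27 counts in a library, and it shares 484 of its 1030 exonic bases with Gm28037 on the same strand. Without vehicle 24 h replicate 2 its value at 24 h was 1.24 (adjusted p = 0.020). Rpl23a, with 10 to 34 counts, was called at 24 h (0.93 ± 0.28, adjusted p = 0.0049) and not at 8 h (0.60 ± 0.31, 0.088), where it passed without vehicle replicate 2 (0.90, 0.027). Rps20 was the remaining member not called at 8 h, at 0.05.

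The size of the FGF6 effect differed between the times, by the interaction test. From 4 h to 8 h it increased in 40 of 80 members and decreased in 0, against 15.5% and 15.1% of all genes, with a median difference of 0.21, and 0 decreased at an unadjusted p under 0.05 or with DESeq2 or limma. From 8 h to 24 h it increased in 33 and decreased in 1, against 22.6% and 22.5% of all genes, with a median difference of 0.14. Without vehicle 24 h replicate 3, 28 increased and 2 decreased, against 21.5% and 21.4% of all genes. The comparisons share the libraries at 8 h. The member whose effect decreased was Rpl10a (ENSMUSG00000037805, chr17:28328471-28331033, plus strand), a large subunit protein of the L1 stalk, named here after its values were seen. Its level was 94.0, 101 and 95.8 CPM in vehicle and 137, 130 and 123 CPM with FGF6 at 4 h, 67.6, 63.7 and 61.8 CPM and 126, 128 and 128 CPM at 8 h, and 36.2, 30.8 and 35.7 CPM and 54.9, 52.9 and 51.1 CPM at 24 h. FGF6 libraries were above vehicle libraries at each time while the level in both treatments was lowest at 24 h, and the log2 fold change was 0.43, 0.99 and 0.63.

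Time in vehicle also moved these genes, mainly from 8 h to 24 h. From 4 h to 8 h in vehicle, 6 members rose and 19 fell, against 21.2% and 21.7% of all genes, with a median log2 change of -0.04. The part of the members that fell was near that of all genes, and the part that rose was smaller. From 8 h to 24 h, 52 rose and 9 fell, against 25.5% and 23.7% of all genes, with a median of 0.34. Without vehicle 24 h replicate 3, 53 rose and 9 fell, against 23.1% and 21.6% of all genes, with a median of 0.36. The 9 that fell, led by Rpl10a (-0.92), Rps13 (-0.56), Rpl28 (-0.55) and Rpl5 (-0.55), included 3 of the genes with large FGF6 effects, Rpl12, Rpl27 and Rpl28. Rps3 rose by 0.38 and Rplp0 by 0.36 over the same interval.

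The fold changes were also set against the number of reads a member took. Mean CPM, used here as reads collected rather than as a level per length, was under 20 in 24 members and 100 or more in 28. At 24 h the median log2 fold change was 0.72 in the first group and 0.51 in the second, and at 8 h it was 0.69 and 0.30. In vehicle from 8 h to 24 h, 6 of the 24 rose and 4 fell with a median of -0.06, while 25 of the 28 rose and 0 fell with a median of 0.37. Over that interval 25.5% of all genes rose and 23.7% fell, so the 24 rose about as often as all genes. Across the 80 members, the Spearman correlation of log2 mean CPM with the FGF6 effect was -0.65 at 4 h, -0.59 at 8 h and -0.47 at 24 h, and 0.46 with the vehicle change from 8 h to 24 h. All points come from the same 18 libraries.

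Reads from many of these genes cannot be placed with certainty, because the mouse genome carries many processed copies of their messenger RNAs. For each member, the share of 50-base stretches of its principal messenger RNA that occur in no annotated transcript of another gene was counted, and it ran from 1.40% in Rps27 to 100% among the 80 tested. Unannotated copies are not counted, which can make a share too high. Genes that overlap a member at its own place on either strand count as other genes, which can make a share too low. Of the tested members, 38 share exonic bases with another gene. Rps6 had 15.4%, Rpl36a 14.5%, Rpl27 35.9% and Rpl28 52.6%, while Rps3 had 97.0%, Rpl8 92.1% and Rplp0 58.2%. The share had a Spearman correlation of 0.56 with log2 mean CPM across the 80 members. How reads that match several places were counted is not given in the sources used here. Of the unique stretches in all annotated exons of Rps6, 85.8% lay outside its principal messenger RNA, in other annotated transcripts such as those that keep introns, and the same share was 95.2% for Rpl36a and 96.5% for Rpl10a. What part such transcripts had in the counts was not tested.

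Split at 50%, a value set after the data were seen, 38 members were mostly unique and 42 mostly shared. At 24 h, 37 of the 38 rose with a median log2 fold change of 0.49, and 41 of the 42 rose with a median of 0.63. At 8 h, 36 of 38 and 40 of 42 rose, with medians of 0.34 and 0.49, and at 4 h, 25 of 38 and 30 of 42 rose, with medians of 0.16 and 0.26. Among all genes the shares that rose were 28.6%, 32.4% and 35.9% at 4, 8 and 24 h. Most members of both classes rose, and the difference between their medians was not tested. Across the 80 members, the share of unique 50-base stretches had a Spearman correlation with the FGF6 effect of -0.40 at 4 h, -0.42 at 8 h and -0.45 at 24 h. Members with a smaller unique share thus tended to have larger changes. The mostly unique members held 1.36% ± 0.0336 of counts with FGF6 and 0.983% ± 0.0382 in vehicle at 24 h, a ratio of 1.38, or 1.36 without vehicle replicate 3.

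**Figure D4:**
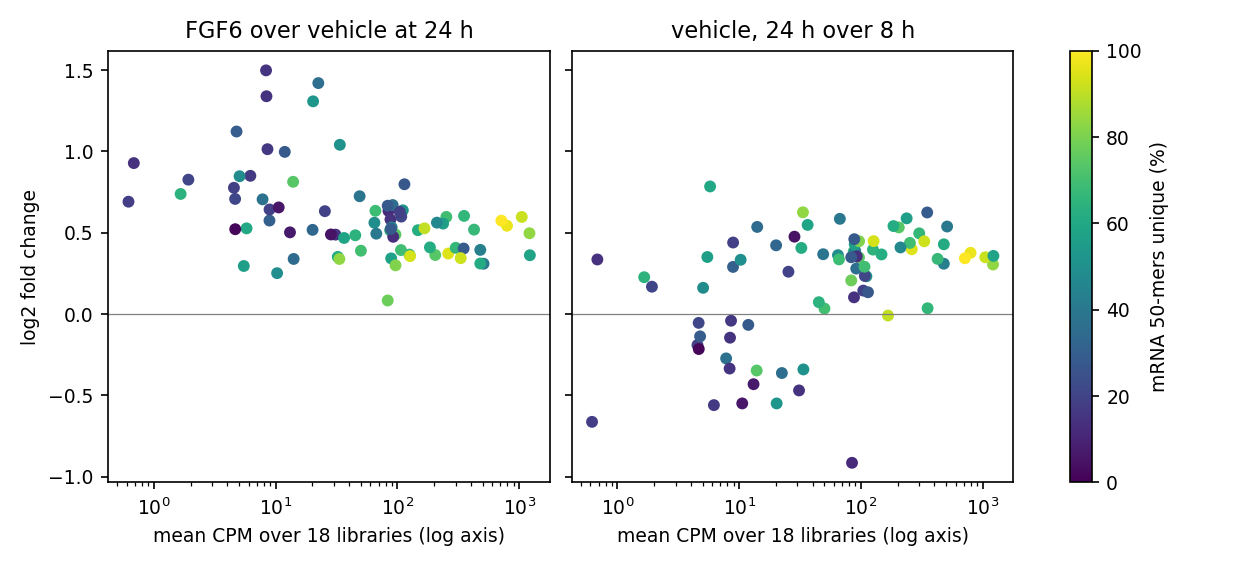
Mean CPM over the 18 libraries (x axis, log scale) against the log2 fold change (y axis) of FGF6 over vehicle at 24 h (left) and of vehicle at 24 h over 8 h (right) for the 80 tested members, colored by the percentage of messenger RNA 50-mers that are unique. At 100 CPM or more the members have medians of 0.51 and 0.37, and members under 20 CPM spread wider, with medians of 0.72 and -0.06.

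Several ribosomal proteins have a paralog, which can take their place in some tissues. Both genes passed the filter in 3 pairs, and the log2 ratio of paralog to partner counts was compared between FGF6 and vehicle within each time by an exact two-sided permutation test over 8000 relabelings, adjusted over the 3 pairs. Rps27l to Rps27 was lower with FGF6, by -0.45 averaged over the times (adjusted p = 0.00075). The ratio was lower in all 3 FGF6 libraries than in all vehicle libraries at each time, with differences of -0.41, -0.50 and -0.43, and 3 against 3 libraries cannot give a p under 0.1 at a single time. Rps27 took 84 to 182 counts in a library and only 1.40% of its messenger RNA stretches are unique, whereas Rps27l had 77.6%. For Rps27, 99.5% of the unique stretches in all annotated exons lay outside its principal messenger RNA. Which transcripts gave the counts of Rps27 was not tested.

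Rpl7l1, a nucleolar relative of Rpl7 involved in ribosome assembly, had a ratio to Rpl7 that was higher with FGF6 by 0.08 on average (exact permutation test, adjusted p = 0.025). By time the differences were 0.12, 0.15 and -0.03, and without vehicle 24 h replicate 3 the adjusted p was 0.063. In both treatments the log2 ratio was lower at 24 h, at -0.67 and -0.64 against -0.07 and -0.20 at 4 h with FGF6 and vehicle. Rpl22l1 to Rpl22 differed by 0.11 (exact permutation test, adjusted p = 0.083), and it passed without vehicle 8 h replicate 2 (0.047), FGF6 4 h replicate 1 (0.029) or FGF6 24 h replicate 1 (0.033). Rpl22 and Rpl22l1 themselves rose at all times, by 0.37 and 0.34 at 24 h. Of the other partners, Rpl3 rose by 0.58, Rpl10 by 0.49, Rpl7 by 0.56, Rpl39 by 0.34 and Rps4x by 0.52 at 24 h.

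**Figure D5:**
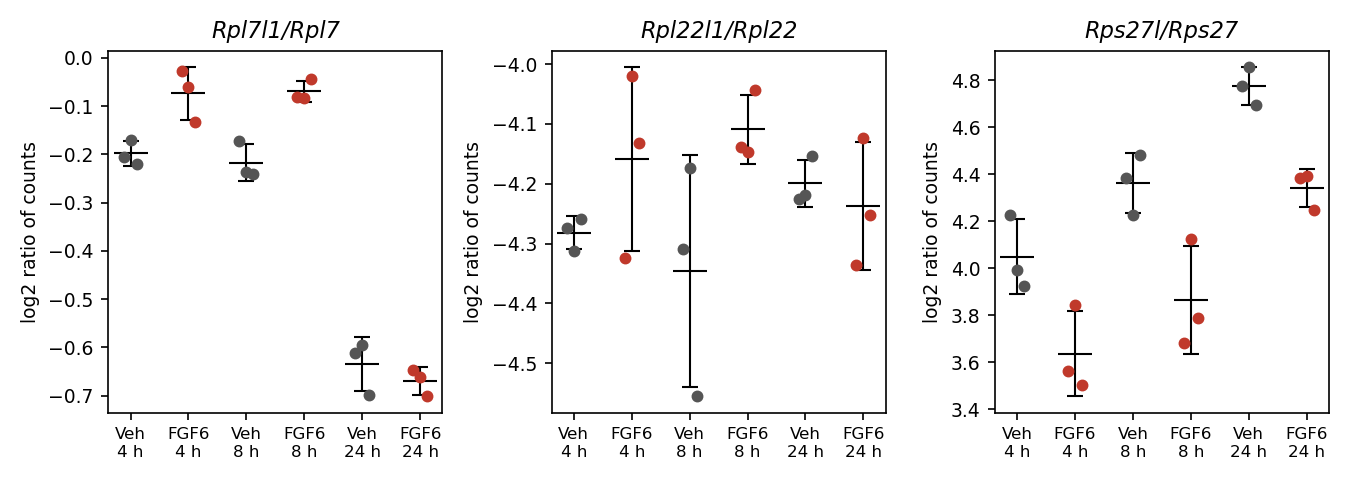
Log2 ratio of the counts of a paralog to those of its partner (y axis, scale differs between panels) in each library (points) with group means and SD (bars), for vehicle and FGF6 at 4, 8 and 24 h (x axis). Rps27l to Rps27 is lower with FGF6 at each time, by -0.50 to -0.41 on average, and Rpl7l1 to Rpl7 is lower at 24 h than at 4 h in both treatments.

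Genes close to the ribosomal proteins in function were read the same way. Of 5 ribosomal protein genes that the symbol rule leaves out, 4 rose at each time, among them Rack1, Fau and Rpl36al. The share of all genes that rose was 28.6%, 32.4% and 35.9% at 4, 8 and 24 h. At 24 h Fau, a fusion of a ubiquitin-like protein with a small subunit protein, was at 13.5, 11.5 and 10.3 CPM in vehicle and 16.5, 21.5 and 20.9 CPM with FGF6, which is a log2 fold change of 0.73 (adjusted p = 1.3e-06). Rps27rt, at under 1 CPM, was not called at any time. The call of Rpl36al at 4 h was lost without vehicle replicate 1 (adjusted p = 0.11) or 2 (0.15), or FGF6 replicate 2 (0.090).

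Of 16 other genes with TOP messenger RNAs, 15 rose at 4 h, 15 at 8 h and 14 at 24 h, with medians of 0.24, 0.51 and 0.55, where 28.6%, 32.4% and 35.9% of all genes rose and their medians were -0.05, -0.05 and -0.02. Without vehicle 24 h replicate 3, 14 rose at 24 h with a median of 0.60, against 36.8% of all genes. Npm1, a nucleolar assembly factor, was at 272, 254 and 262 CPM in vehicle and 607, 609.7 and 578 CPM with FGF6 at 24 h, a log2 fold change of 1.19, and Nap1l1, a histone chaperone, and Pabpc1, which binds poly(A) tails, changed by 1.15 and 1.11. The FGF6 libraries were above all vehicle libraries in Npm1. Eif3e, a subunit of initiation factor eIF3, fell at 24 h by 0.27 on the log2 scale (adjusted p = 1.2e-07).

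All 6 genes of chaperones that escort new ribosomal proteins rose at each time, with medians of 0.44, 0.66 and 0.54, beside the same 28.6%, 32.4% and 35.9% of all genes. Grwd1, which escorts Rpl3, was at 48.3, 41.8 and 40.8 CPM in vehicle and 95.7, 94.4 and 99.9 CPM with FGF6 at 24 h, a log2 fold change of 1.15 (adjusted p = 5.5e-17). Of 11 tested regulators of TOP messenger RNAs, 6 rose and 3 fell at 4 h, 6 rose and 3 fell at 8 h, and 5 rose and 1 fell at 24 h, with medians of 0.10, 0.09 and 0.05. Of all genes, 28.6%, 32.4% and 35.9% rose and 34.2%, 38.4% and 37.9% fell. Without vehicle 24 h replicate 3, 6 regulators rose and 1 fell at 24 h with a median of 0.10, against 36.8% and 34.2% of all genes. The regulators with the largest changes at 24 h were Eif4ebp1, a repressor of cap-dependent initiation (1.02), Cnbp, which binds TOP messenger RNAs (0.77), Larp4, which binds poly(A) tails (0.63), and Rptor, a subunit of mTOR complex 1 (0.63). Tsc1, an inhibitor of that complex, was the regulator that fell at 24 h, by 0.53 on the log2 scale, and Larp1 rose by 0.58, 0.77 and 0.51 at 4, 8 and 24 h. The 3 that fell at 4 h and at 8 h, named after their values were seen, were Tsc1 (-0.26 and -0.37), Mtor, the kinase of that complex (-0.16 and -0.22), and Rps6kb1, an S6 kinase (-0.14 and -0.32). At 24 h Mtor was at 0.04 (adjusted p = 0.38) and Rps6kb1 at 0.05 (adjusted p = 0.27, or 0.10 with adjusted p = 0.048 without vehicle replicate 3).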

How the data were processed

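RNA of the 18 libraries was sequenced on a HiSeq 4000. Per the study's methods and the labels, the authors aligned reads with STAR to GRCm38 and took counts over GENCODE genes with featureCounts of Subread, and the deposited values are raw counts per gene. Versions, strand setting and treatment of multi-mapping reads are not given in the sources used here. Symbols came from GENCODE M21, which held 98.3% of the 48023 identifiers.

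Counts were fitted with edgeR 4.0.16 (R 4.3.3) quasi-likelihood models over all 18 libraries with 6 group means, TMM factors and the filterByExpr filter, with Benjamini-Hochberg adjustment over 15071 genes and a threshold of 0.05. The common biological coefficient of variation was 4.58%. The script was tested on simulated data. Alternatives used DESeq2 1.42.0, limma 3.58.1 (voom), other scalings and filters, a GC content and length offset chosen after seeing the data, and leaving out each library. CPM used TMM factors. Intervals and SE reflect the spread between libraries. Uniqueness was counted on GENCODE M21 transcripts in Python with numpy and pandas, and start sites came from RefSeq.

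The members, lists and naming rule (paralogs and partners, the 5 largest increases and decreases at each time, the 5 highest and lowest per kilobase, 10 members with known roles, at most 4 genes per list) were chosen with earlier results of these data known. Rpl10a and the genes named for differences between times were named after their values were seen. Some genes that the rule would name are not reported here.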

Additional observations from a re-analysis of the deposited data

Results flagged for a closer look

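The effect of FGF6 differed between times by a test of the difference itself, the interaction term of the edgeR model. From 4 h to 8 h the effect increased in 40 members, with 15.5% of all genes increasing, and from 8 h to 24 h it increased in 33 and decreased in 1, with 22.6% and 22.5% of all genes. Among the largest increases from 4 h to 8 h on the log2 scale were those of Rps6 (0.74, adjusted p = 0.0025), Rpl10a (0.56, adjusted p = 7.5e-07), Rpl28 (0.51, adjusted p = 0.00054) and Rpl12 (0.50, adjusted p = 1.8e-05). Among the largest increases from 8 h to 24 h were those of Rps25 (0.58, adjusted p = 4.1e-05), Rpl36a (0.41, adjusted p = 0.0079), Rpl21 (0.41, adjusted p = 0.0016) and Rpl26 (0.40, adjusted p = 4.2e-05), and Rpl10a was the member that decreased (-0.35, adjusted p = 0.00031). In Rps25 the groups overlapped at 8 h, from 95.7 to 102 CPM in vehicle and 101 to 127 CPM with FGF6. Rpl10a, Rpl12, Rpl28 and Rps6 fell in vehicle from 4 h to 8 h, so the increase of their effect over that interval goes with a lower vehicle level.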

How the results depend on the processing

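Counts of members that rose with FGF6 at 8 h and 24 h stayed within 1.5 times under every alternative run. At 4 h, library sizes alone gave 24 higher and 4 lower (21.5% and 43.1% of all genes). The number lower was 2 with upper-quartile factors (39.1% of all genes), 1 at a threshold of 0.25 (41.8%) and 2 with the GC content and length offset (34.5%). The number lower at 8 h was 0 with DESeq2, with TMM factors from the other genes, with no filter, with at least 10 counts in every library and with only the libraries compared. In those runs 20% (no filter) to 40% (at least 10 counts) of all genes were lower. At 24 h the number lower was 1 with the GC content and length offset, against 38% of all genes, and there Rps27l was at -0.12 (adjusted p = 0.0084). At a threshold of 0.25 the effect increased from 4 h to 8 h in 62 members and decreased from 8 h to 24 h in 4, against 25.2% and 30.8% of all genes, and in vehicle 11 rose from 4 h to 8 h and 14 fell from 8 h to 24 h, against 29.8% and 32.6%. Rplp0 at 4 h was -0.0664 and Rpl13a -0.0282 with library sizes alone. The cause of these differences was not tested.

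Leaving out each library gave 44 to 66 members higher and 0 lower at 4 h, 75 to 77 and 0 to 1 at 8 h, and 76 to 80 and 0 at 24 h. Of all genes, 26.6% to 28.5% were higher at 4 h, 30.4% to 33.2% at 8 h and 34.2% to 36.8% at 24 h. At those times 29.5% to 32.4%, 33.6% to 36.5% and 33.9% to 35.7% of all genes were lower. The effect increased in 27 to 43 members from 4 h to 8 h and in 26 to 36 from 8 h to 24 h, with 0 and 1 to 2 decreasing. Among all genes it increased in 13.2% to 15.5% and 20.4% to 21.5%, and decreased in 12.2% to 14.4% and 20.6% to 21.6%. In vehicle 3 to 8 rose and 11 to 19 fell from 4 h to 8 h (3 rose without vehicle 4 h replicate 1 or 2, and 11 fell without replicate 3), and 49 to 53 rose and 9 to 10 fell from 8 h to 24 h. Of all genes in vehicle, 18.3% to 19.6% rose and 18.9% to 20.1% fell from 4 h to 8 h. From 8 h to 24 h, 22.6% to 24.1% of all genes rose and 20.6% to 21.7% fell. Paralog log2 ratios differed by 0.0721 to 0.136 for Rpl22l1 to Rpl22, 0.0684 to 0.0891 for Rpl7l1 to Rpl7 and -0.492 to -0.418 for Rps27l to Rps27. Over all alternatives, 179 results were recomputed, among them counts of members, summed shares, paralog ratios and single genes. Of the 3106 values, 2998 were classed as the same as in the main run, 73 as weaker and 32 as stronger. The remaining 3, all of single genes, were reversed.

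With the replicate block, 56 members rose at 4 h, 76 at 8 h and 78 at 24 h, and 1 fell at 8 h. Of all genes, 28.5%, 32.5% and 35.9% rose at these times, and 38.4% fell at 8 h. Deviations of libraries with the same replicate number had correlations between -0.30 and 0.28, so no clear pairing by number was seen. The same number gave the highest correlation for vehicle 4 h replicate 2 (0.28) and vehicle 8 h replicate 3 (0.23), and for no other vehicle library. Whether the numbers mark shared cultures was not tested. Members with few counts, such as Rpl24 and Rpl23a, limit what can be detected.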
